A study of Mus musculus with 24 samples.

Results

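Of 14996 strong H3K27ac peaks of wild-type (WT) forelimb buds, 519 were limb-only regions that were lost without Shh. The members were chosen by 3 measured criteria: a rank of at most 15000 in the WT H3K27ac list, no H3K27ac peak of Shh-/- forelimb buds within 1 kb, and no overlap of 1 bp with an H3K27ac peak of NIH3T3 fibroblasts. The WT list held 49669 peaks on chromosomes 1 to 19 and X. Of the 14996 strong peaks, 782 (5.21%) had no Shh-/- peak within 1 kb, 5709 (38.1%) had no NIH3T3 overlap, and the 519 that met both criteria were 3.46% of the strong peaks and 9.09% of the strong peaks without NIH3T3 overlap. "Lost" means here that a peak was absent from the Shh-/- list, and an absent peak can still have had acetylation below the threshold of the authors' peak caller. "Limb-only" means only that a peak overlapped no peak of this 1 fibroblast line, and no other tissue was examined. The nearest NIH3T3 peak was as close as 1 bp, and 414 of 519 members (79.8%) were more than 5000 bp from one. The regions are compared below with 4639 kept limb-only regions, which had the same rank limit, a Shh-/- peak overlapping by 1 bp and no NIH3T3 overlap.

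In the limb bud, Sonic hedgehog (SHH) is made by the zone of polarizing activity at the posterior margin, and it patterns the digits along the anterior-posterior axis. Hedgehog (HH) signaling acts through the GLI transcription factors, which repress target genes without the ligand and lose this repression, or activate, when the ligand is present. H3K27ac is found at active regulatory regions, whereas H3K4me2 also covers enhancers and promoters that carry no acetylation. H3K27me3 is the mark of Polycomb repression.

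The samples were forelimb buds of WT and Shh-/- embryos at E10.5 (32 to 35 somites) on a Swiss Webster background, with about 400000 cells per immunoprecipitation. The Shh-/- embryos carried a null allele, and by the study's methods forelimbs of several embryos were pooled and the control animals included heterozygous littermates. The HH-responsive mouse fibroblast line NIH3T3 had been cultured in low serum for 48 h with the pathway agonist purmorphamine at 400 nM or with DMSO. Of 24 libraries, 14 were immunoprecipitations and 10 were inputs, with 2 libraries per immunoprecipitated condition. Each of the 7 peak lists gives 1 set of values per condition and none per replicate, so the lists allow no test over samples. Limb buds are mixtures of cells, so fewer cells of a type and less acetylation per cell cannot be told apart. The promoters of all 6 limb mesenchyme markers examined (Prrx1, Prrx2, Tbx5, Twist1, Lmx1b and Shox2) had H3K27ac peaks in both WT and Shh-/- limb buds. Neither hindlimb marker (Tbx4, Pitx1) and none of 4 muscle precursor markers, 3 blood markers or 4 ectoderm markers had a WT peak at the promoter, and among 5 endothelial markers only Cdh5 had one. In the Shh-/- list, Tbx4, Pax3, Lbx1 and Pecam1 had a promoter peak and Cdh5 had none, and the part of these cell types in the lost regions was not tested.

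Sequences of the regions are shown first, because GLI proteins bind DNA directly and the regions nearest HH target genes can then be read beside their values. The GLI consensus GACCACCCA was searched on both strands in the central 500 bp of each peak, with the GRCm38 (mm10) sequence from RefSeq. It was present in 4 of 519 lost regions (0.771%, 95% Wilson interval 0.300 to 1.96), against 0.473% of all strong peaks and 21 of 4639 kept regions (0.453%, 0.296 to 0.691). The 4 regions were nearest Sh3bgrl2 (rank 9026), Tpd52l1 (rank 9971), Cd83 (rank 14175) and Gtdc1 (rank 14328), and none of these genes was on the list of HH targets used here. Capitals mark the consensus, and the Tpd52l1 sequence is short because an untranslated region lies beside it.
Sh3bgrl2 (chr9:83638905-83639013, plus strand): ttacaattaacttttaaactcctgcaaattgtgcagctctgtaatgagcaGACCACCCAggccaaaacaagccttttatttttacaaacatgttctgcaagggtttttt
Tpd52l1 (chr10:31445692-31445720, plus strand): ggcgaccggcGACCACCCAccttgtgcct
Cd83 (chr13:43892034-43892142, plus strand): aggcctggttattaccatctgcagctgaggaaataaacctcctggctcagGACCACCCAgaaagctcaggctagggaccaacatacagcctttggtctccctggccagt
Gtdc1 (chr2:44341593-44341701, plus strand): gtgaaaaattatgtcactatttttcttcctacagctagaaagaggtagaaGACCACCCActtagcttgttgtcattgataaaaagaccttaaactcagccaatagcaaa

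Among the 20 lost regions nearest an HH target, none held the consensus with up to 1 mismatch in the central 500 bp, which allows a share of up to 16.1% by the Wilson interval, while 5 of 46 kept regions nearest the same genes did. In the whole deposited peaks, 1 of the 20 held an exact consensus and 3 held it with up to 1 mismatch. The exact match lay in the best-ranked lost region of Hand2, a bHLH factor of the posterior limb bud, and outside its central 500 bp. The other matches lay in a region at the Hoxd12 promoter and in a region distant from Sall1. Capitals mark the match, and each substitution gives the consensus base, the position counted from 1 at the 5′ end of the consensus, and the base found.
Hand2, exact (chr8:56983214-56983322, minus strand): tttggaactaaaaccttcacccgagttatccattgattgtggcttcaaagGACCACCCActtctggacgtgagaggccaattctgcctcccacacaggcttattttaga
Hoxd12, C6T (chr2:74674000-74674108, plus strand): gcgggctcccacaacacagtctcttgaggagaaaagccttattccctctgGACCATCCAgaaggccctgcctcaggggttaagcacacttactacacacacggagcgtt
Sall1, C4A (chr8:89540690-89540798, plus strand): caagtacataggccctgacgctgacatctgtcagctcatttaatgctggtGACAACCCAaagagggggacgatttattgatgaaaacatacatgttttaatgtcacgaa

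The best-ranked lost region, in an intron of Cuedc1, and a region of the run with the most neighbouring lost regions, nearest Atp5g3, each held a single match with 1 mismatch. They are printed because they belong to the best-ranked member and the run with the most members, and they were picked after their values had been seen. Across all members, 52 of 519 (10.0%, 7.72 to 12.9) held at least 1 match with up to 1 mismatch, against 9.94% of all strong peaks and 406 of 4639 kept regions (8.75%, 7.97 to 9.60), so the difference was within the counting error. In ranks 5001 to 10000 the share was 21 of 124 (16.9%, 11.4 to 24.5) in lost and 162 of 1762 (9.19%, 7.93 to 10.6) in kept regions, and in ranks 10001 to 15000 it was 30 of 383 (7.83%) and 151 of 1758 (8.59%), so the order was not the same in both bands. The share was higher in lost than in kept regions on 9 of 20 chromosomes. A match is a description of the letters and not a bound site.
Cuedc1, A2G (chr11:88148647-88148755, plus strand): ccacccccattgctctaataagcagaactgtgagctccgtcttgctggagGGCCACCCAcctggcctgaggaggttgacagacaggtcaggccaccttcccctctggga
Atp5g3, C6A (chr2:73980305-73980413, plus strand): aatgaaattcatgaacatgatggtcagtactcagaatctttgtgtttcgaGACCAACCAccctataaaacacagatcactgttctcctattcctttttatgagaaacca

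The centres of 3 further lost regions at HH targets are printed for orientation, in lower case throughout because neither the GLI consensus with up to 1 mismatch nor the HAND E-box CATCTG or the posterior HOX letters CAATAAA lay in them. They belong to the regions nearest Hoxd11, Grem1 and Ptch1 that are described with their values below. These 3 do not stand for all HH targets, because the centre of the Hand2 region of rank 4524 held 1 HAND E-box and 1 posterior HOX match.
Hoxd11 (chr2:74679074-74679223, plus strand): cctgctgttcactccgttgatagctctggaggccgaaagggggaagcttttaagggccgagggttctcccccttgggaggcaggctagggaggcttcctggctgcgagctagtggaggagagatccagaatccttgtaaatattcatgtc
Grem1 (chr2:113605249-113605398, plus strand): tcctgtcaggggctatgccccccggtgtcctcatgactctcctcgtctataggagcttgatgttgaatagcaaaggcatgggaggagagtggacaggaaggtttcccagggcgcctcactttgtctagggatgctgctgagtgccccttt
Ptch1 (chr13:63572699-63572848, plus strand): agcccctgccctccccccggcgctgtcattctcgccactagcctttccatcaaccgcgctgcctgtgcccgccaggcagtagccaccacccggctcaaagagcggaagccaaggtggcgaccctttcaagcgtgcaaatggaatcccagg

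Each member had a single set of values, those of the WT list. The score, the peak caller's highest statistic within a peak, sets the rank, and the log2 ratio is their largest ratio of ChIP to input. Among the 519 members the rank ran from 1661 to 14999 with a median of 12230, and the log2 ratio from 3.57 to 5.54 with a median of 3.77. The median width was 400 bp, from 150 to 2750 bp. The median distance to the nearest Shh-/- peak was 22751 bp, and 386 of 519 members (74.4%) were more than 5000 bp from one. The FDR of every member was at most 0.000261. Coordinates are given as deposited, where starts are multiples of 50, so a doubt of 1 bp on the first base remains.

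**Figure D1:**
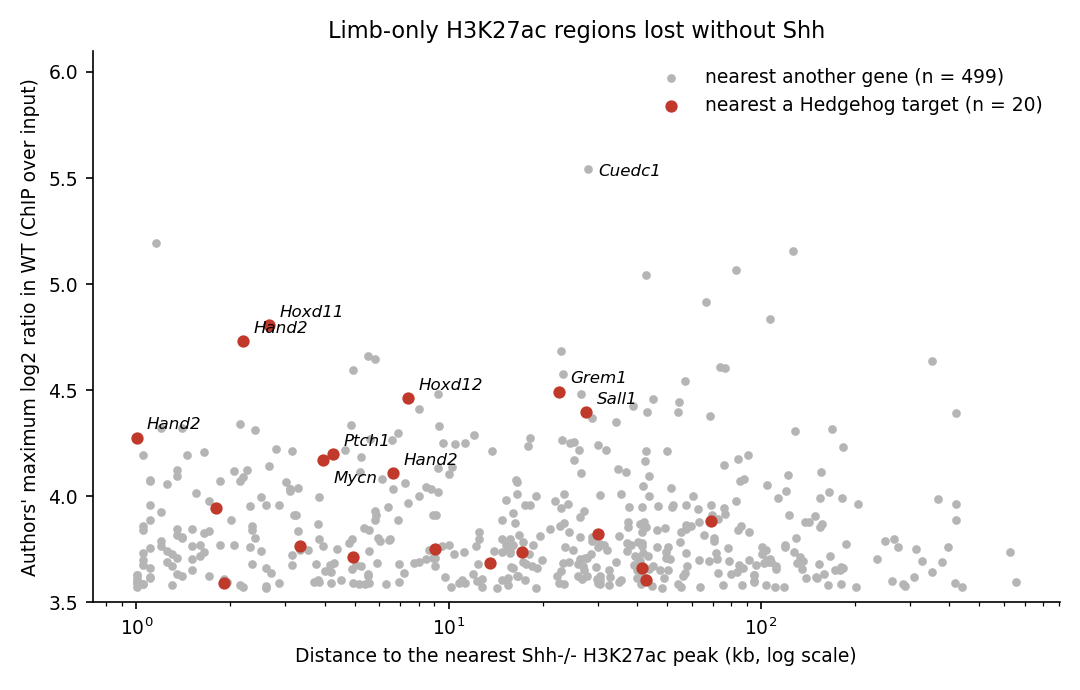
Maximum log2 ratio of ChIP to input in WT (y axis, the authors' value) against the distance to the nearest Shh-/- H3K27ac peak (x axis, kb, log scale) for the 519 lost limb-only regions; each point is 1 region, red for the 20 nearest an HH target and grey for the other 499. The best-ranked region, in Cuedc1, reached 5.54, the red points with gene names are those of rank 10000 or better, and the red points lie between log2 ratios of 3.59 and 4.81, at 1001 to 69251 bp from a Shh-/- peak.

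The best-ranked members were strong peaks in WT. The best of all lay in an intron of Cuedc1 (chr11:88148050-88149749, rank 1661, score 6.90, log2 ratio 5.54), 27901 bp from a Shh-/- peak and 1201 bp from an NIH3T3 peak. The next was between genes, 485018 bp from the start of Nrsn1 (rank 2638, log2 ratio 5.19), and its nearest Shh-/- peak was only 1151 bp away. Members followed in an intron of Kank1 (rank 2744, log2 ratio 5.16), 95041 bp from Olfm1 (rank 3098, 5.07) and 567587 bp from Intu (rank 3194, 5.04). The sixth and seventh were in an intron of Ctnna2 nearest Lrrtm1 (rank 3672, 4.91) and 148326 bp from Cblb (rank 4011, 4.84). The last 3 of the best 10 were nearest Hoxd11 (rank 4143, 4.81), Hand2 (rank 4524, 4.73) and Atp5g3 (rank 4767, 4.68). The named genes are the nearest protein-coding starts, and nearness does not show that a region acts on the gene.

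Most members were weak among the strong peaks. Of WT peaks with ranks 1 to 5000, 12 of 5000 (0.24%) were members, of ranks 5001 to 10000 124 of 4997 (2.48%), and of ranks 10001 to 15000 383 of 4999 (7.66%). Kept regions were wider, with a median of 800 bp over all ranks and 550 bp in ranks 10001 to 15000, where the median of the members was 350 bp. Rank and width therefore differ between lost and kept regions. The 3 members just inside the rank limit, nearest Filip1l, Rpl29 and Zfp644, had ranks of 14972, 14973 and 14999 and log2 ratios of 3.57, 3.57 and 3.57, and the 3 peaks just outside, nearest Clint1, Tpgs2 and Gpc6, had ranks of 15003, 15015 and 15017 and log2 ratios of 3.57, 3.57 and 3.57. At the limit of 1 kb, the members nearest to a Shh-/- peak were nearest Hand2, Csnk1g3 and Mecom, each at 1001 bp, and the peaks just short of it, nearest Trim52, Epha7 and Lrig3, were each at 951 bp.

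HH target genes were the list with the most lost regions. The list held 20 genes with a role in or downstream of HH signaling in the limb, from the receptor gene Ptch1 and the pathway gene Gli1 to the posterior limb genes Hand2 and Hoxd10 to Hoxd13, and it had been drawn up with results of these data known. The shares of this list, also by rank band and with genes left out, are therefore a description and no test of an excess. Of all strong peaks, 109 (0.727%) were nearest a gene of this list, and 20 of these 109 were members (18.3%, 12.2 to 26.6), against 3.46% of all strong peaks. Among the strong peaks without NIH3T3 overlap it was 20 of 78 (25.6%), against 9.09%. The share was 2 of 30 (6.67%) in ranks 1 to 5000, 7 of 37 (18.9%) in ranks 5001 to 10000 and 11 of 42 (26.2%) in ranks 10001 to 15000, above the share over all peaks in each band. Leaving out any 1 of the 10 genes with a member gave 16.5 to 18.6%, and leaving out Hoxd10 to Hoxd13 gave 16.3%. When the nearest start of any gene was used in place of a protein-coding one, 34 strong peaks remained nearest the list and 3 were members (8.82%), because other genes, such as non-coding ones, start closer to most of the 20 regions. No interval was computed for 3 of 34, and with so few regions this choice does not set the list apart from 3.46%.

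The 20 regions belonged to 10 genes. Hand2 and Sall1, a zinc finger factor of limb and kidney development, had 4 each, Mycn, a proliferation factor, had 3, and Hoxd12 and Sall3 had 2 each. Hoxd11, Ptch1, Grem1, Tbx3 and Fmn1 had 1 each. Grem1 encodes a BMP antagonist of the posterior mesenchyme, and Fmn1 is its neighbour, whose introns hold limb enhancers of Grem1. Of the 20, 12 lay more than 100000 bp from the start of the gene and 6 overlapped a promoter, defined as 2 kb before to 1 kb after an annotated start of any gene. Tbx2, Bmp2, Jag1, Osr1 and Hhip had no member and had 4, 5, 3, 3 and 1 kept regions. Gli1 had 2 strong peaks that were lost without Shh, but these peaks overlapped NIH3T3 acetylation and so fell outside the limb-only set, as did 2 further lost peaks of Grem1. Ccnd1 had 5 strong peaks, with neither lost nor kept limb-only regions among them.

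**Figure D2:**
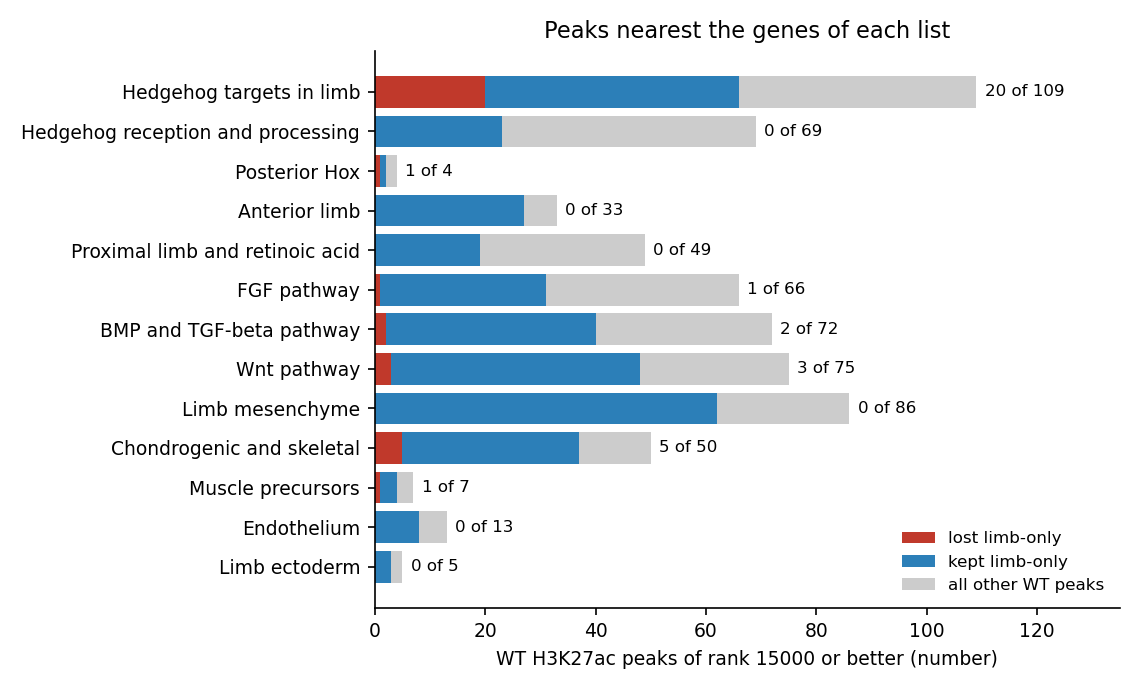
Number of WT H3K27ac peaks of rank 15000 or better (x axis) nearest the genes of each of 13 gene lists (y axis), split into lost limb-only, kept limb-only and all other peaks; the blood list had no such peak. The numbers beside the bars are lost limb-only of all, and the HH target list has 20 of 109, while 4 lists with 33 to 86 peaks have 0.

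Other lists of limb genes had few or no members, and for most of them the intervals held the share over all strong peaks (3.46%), so on this base they did not stand apart from the background. Of limb-only peaks, 9.09% were members over all genes, against 0 of 65 for limb mesenchyme, 0 of 28 for anterior limb and 0 of 24 for HH reception genes. Proximal genes had 0 of 21, FGF genes 1 of 39, BMP and TGF-beta genes 2 of 43 and Wnt genes 3 of 55. Posterior Hox (1 of 3), muscle precursor (1 of 4) and chondrogenic genes were above 9.09%. No intervals were computed on the limb-only base. None of 69 strong peaks nearest genes of HH reception and processing, such as Smo, Gli2 and Gli3, was a member (0%, interval up to 5.27%). None of 33 was for anterior limb genes such as Alx4 and Pax9 (up to 10.4%), none of 49 for proximal and retinoic acid genes such as Meis1 and Meis2 (up to 7.27%), and none of 86 for limb mesenchyme genes such as Prrx1 and Tbx5 (up to 4.28%), where 62 of the 86 were kept limb-only regions. The FGF pathway had 1 of 66 (1.52%, nearest Spry1, an inhibitor of FGF signaling). The BMP and TGF-beta pathway had 2 of 72 (2.78%), both nearest the BMP receptor gene Bmpr1b, with ranks of 8155 and 9167 and log2 ratios of 4.17 and 4.06. The Wnt pathway had 3 of 75 (4.00%), nearest Lef1, Tcf7l2 and Wnt5a. The chondrogenic list had 5 of 50 (10.0%, 4.35 to 21.4), with 2 in introns of Sox6, 2 in an intron of Sox5 and 1 nearest Sox9, the 3 SOX genes of cartilage formation. The interval of this list lay above 3.46%, and 5 of its 40 limb-only peaks (12.5%) compare with 9.09% over all genes. The 5 regions had ranks of 9801 to 12418 and log2 ratios of 3.76 to 3.99. Posterior Hox genes outside the HH target list had 1 of 4, nearest Evx1. Muscle precursor genes had 1 of 7, in an exon of Lbx1, and endothelial, blood and ectoderm genes had none of 13, 0 and 5.

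The Hoxd cluster had the most members within 1 Mb of an HH target among the 8 genes examined in this way, which were chosen after the data had been seen. Within 1 Mb of the start of Hoxd13, which encodes a homeodomain factor of the digits, 16 of 49 limb-only strong peaks were lost (32.7%, 21.2 to 46.6). On the side before Hoxd13, which holds the gene desert with the known digit enhancers of the cluster, 9 were lost and 5 were kept. On the other side, which includes the cluster itself, 7 were lost and 24 were kept, so lost and kept regions were unevenly placed. The same counts were 8 of 24 around Hand2 (33.3%, 18.0 to 53.3), 6 of 21 around Sall1 (28.6%), 7 of 31 around Mycn (22.6%) and 3 of 16 around Ptch1 (18.8%). They were 3 of 6 around Grem1, 1 of 9 around Tbx3 and 0 of 3 around Gli1. Over all limb-only strong peaks, 519 of 5709 (9.09%) were lost. The intervals for Ptch1 (6.59 to 43.0), Tbx3 (1.99 to 43.5) and Gli1 (0 to 56.1) held this share. Those of the other genes lay above it, which is a description because the genes were chosen with the members known.

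**Figure D3:**
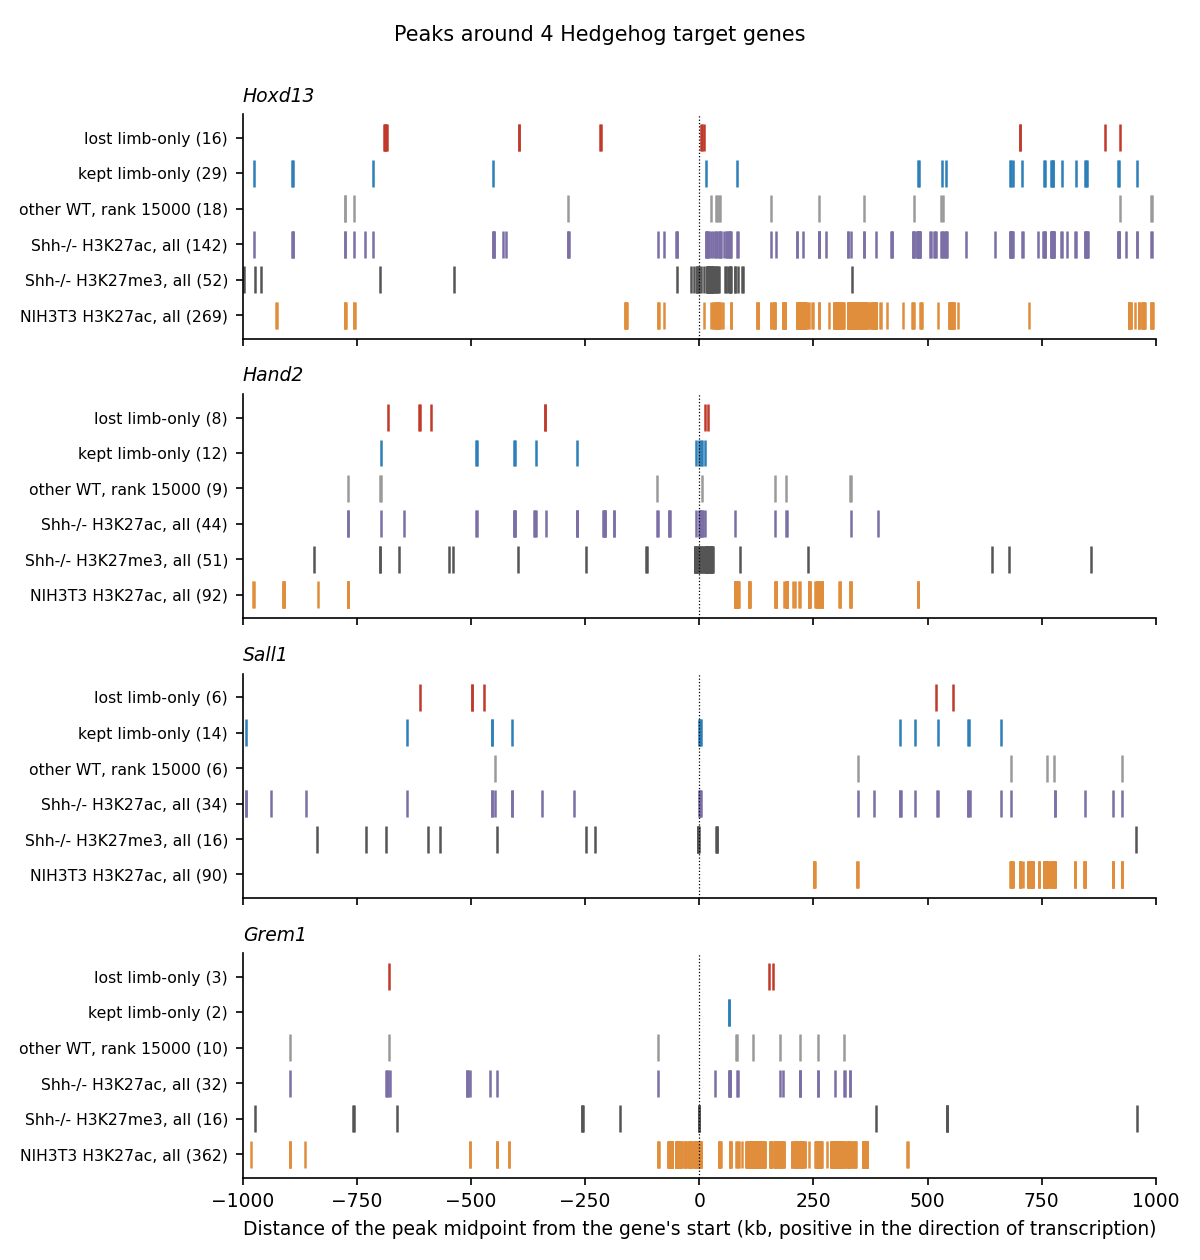
Peaks within 1 Mb of the start of Hoxd13, Hand2, Sall1 and Grem1 (x axis, distance of the peak midpoint from the start in kb, positive in the direction of transcription); each tick is 1 peak, rows are peak sets and the numbers in brackets count the peaks. Left of Hoxd13 there are 9 lost and 5 kept limb-only regions and to its right 7 and 24.

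The desert before Hoxd13 held the run with the most members. Chains were runs of members with gaps of at most 50 kb, and the 519 members formed 442 runs, of which 380 were single regions, 50 held 2, 10 held 3, 1 held 4 and 1 held 5. The run of 5 spanned chr2:73976350-73984199 (7850 bp), where all 5 strong peaks were members and the Shh-/- and NIH3T3 lists had no peak at all. Its ranks were 4767, 11495, 5922, 11896 and 12318, and its nearest gene was Atp5g3, a subunit of the mitochondrial ATP synthase, 65024 to 72274 bp away. A further 4 members of the same desert were nearest Lnpk, with ranks of 6626 to 14155, and no kept limb-only region was nearest that gene. Within the cluster, 3 members spanned chr2:74672600-74679549. The first (rank 12459, log2 ratio 3.75) and the second (rank 6057, 4.46) were at the Hoxd12 promoter, and the third (rank 4143, 4.81) was between Hoxd12 and Hoxd11, only 301 bp from an NIH3T3 peak. Beyond the cluster, 4 members nearest Hnrnpa3 had ranks of 5285 to 14552, where 18 of 25 strong peaks were kept limb-only regions.

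Hand2 had lost regions both near its start and far from it. The strongest was 337384 bp away (chr8:56982250-56983599, rank 4524, log2 ratio 4.73), with a second beside it at rank 14606 (3.59), and a Shh-/- peak lay 2201 bp from the first. The other pair lay 11367 bp (rank 7356, 4.28) and 19817 bp (rank 8717, 4.11) from the start and overlapped promoters of the non-coding gene 5033428I22Rik. Farther on the same side as the distant pair, 4 members nearest Fbxo8 had ranks of 6800 to 12691, and 3 of them formed a run of 28000 bp with no Shh-/- or NIH3T3 peak inside. Of 13 strong peaks nearest Hand2, 7 were kept limb-only regions, and the promoter of Hand2 itself had H3K27ac in both WT and Shh-/- limb buds.

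The lost regions of Sall1 were all distant from it. The strongest was 611288 bp away (chr8:89655450-89656299, rank 6472, log2 ratio 4.40), and 3 others formed a run of 25900 bp at 471988 to 497588 bp, with ranks of 12647, 13689 and 14394. The Grem1 region lay in an intron of Fmn1 (chr2:113604850-113605799, rank 5866, log2 ratio 4.49), 152847 bp from Grem1 and 1501 bp from an NIH3T3 peak. A second region in Fmn1, overlapping an exon and nearest a start of that gene, had rank 13342 (3.69). The Ptch1 region (chr13:63572300-63573249, rank 7956, log2 ratio 4.20) lay within the span of Ptch1, 6565 bp from its nearest start in the basic annotation, and overlapped a promoter of the non-coding gene Gm30655. The 1 Mb counts above used the 5′ end of the gene span (chr13:63573598) as the start, which lies nearer to this region. Ptch1 had a promoter H3K27ac peak in both WT and Shh-/- limb buds. The Mycn regions were 129917 to 144436 bp away, with ranks of 8160, 11629 and 12946.

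Outside the HH targets, the run of 4 members lay in Adamts17, a metalloprotease gene (chr7:66966350-67027599), and its 4 members were all of the strong peaks nearest that gene. Their ranks were 12371 to 14885, so they were weaker than those at Hoxd and Hand2. Other runs, named after their values had been seen, held 3 members and no kept limb-only region, and they lay nearest Ccser1, Nrg1, Sertad4, Smim20, Tle4 and Zeb2. The run at Nrg1, which encodes a ligand of ERBB receptors, spanned 1550 bp with ranks of 6495, 10841 and 10082. Tle4, a corepressor of the Groucho family, had 5 members among 10 strong peaks, with ranks of 9468 to 14789. A run of 3 nearest Skor1 spanned 45950 bp and held 1 kept limb-only region. In all, 407 genes were nearest to a member, of which 330 had 1, 54 had 2 and 23 had 3 or more.

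A few of the 50 runs of 2 members, and Nrp2 with 3 members, are described by hand choice after their values had been seen, so they stand for no theme among the runs. Both exonic regions of Frzb, a secreted Wnt inhibitor of cartilage, had modest ranks (12221 and 12740, log2 ratios of 3.77 and 3.73) and lay 1851 and 1301 bp from a Shh-/- peak. The pair of Nkd1, an intracellular Wnt inhibitor, held a region at its promoter (rank 9386, 4.04) and one 32155 bp away (rank 12515, 3.75). The first region of Meox2, a homeobox gene of muscle precursors, lay 141 bp from its start (rank 8002, 4.19) with H3K4me2 in WT (4.10) and Shh-/- (3.63), and a Shh-/- acetylation peak was 1051 bp away. Efnb2, which encodes an ephrin ligand, had members 425393 and 443243 bp away (ranks 10584 and 7845). Nrp2, a semaphorin co-receptor gene, had 3 members in introns of Pard3b with ranks of 10820 to 13818. The members of these genes ranked below the best of Hoxd and Hand2, and several sat within 5000 bp of acetylation that remained in Shh-/-.

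Members were found near each other less often than kept regions, of which there were many more. Of the members, 153 of 519 (29.5%, 25.7 to 33.5) had another within 100 kb, against 3435 of 4639 kept regions (74.0%). Among all strong peaks it was 12885 of 14996 (85.9%). For the smaller set of lost regions acetylated in NIH3T3 it was 40 of 263 (15.2%, 11.4 to 20.0), below the members. Limb-only regions of rank 15000 or better that were present only in Shh-/- numbered 276, and 41 of them (14.9%, 11.1 to 19.5) had another of their kind within 100 kb. These shares depend on how many regions a set holds and are a description. The weaker peaks around the members were also often absent from the Shh-/- list. Of WT peaks with ranks over 15000 within 20 kb of a member, 710 of 1172 (60.6%, 57.8 to 63.3) had no Shh-/- peak within 1 kb, against 10677 of 33501 (31.9%, 31.4 to 32.4) farther from members and 1983 of 9429 (21.0%, 20.2 to 21.9) within 20 kb of a kept limb-only region, which by its choice has a Shh-/- peak. This measure comes from the same pair of lists as the rule. The share of strong peaks that were members ran from 0.887% on chromosome X to 5.05% on chromosome 19, with 51 members on chromosome 2, where Hoxd and Grem1 lie.

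The H3K4me2 lists were not used by the rule. In WT, 69 of 519 members (13.3%, 10.6 to 16.5) overlapped an H3K4me2 peak, against 57.6% of all strong peaks and 1117 of 4639 kept limb-only regions (24.1%, 22.9 to 25.3), and the share was lower in lost than in kept regions on 18 of 20 chromosomes. In ranks 5001 to 10000 it was 21 of 124 (16.9%, 11.4 to 24.5) and 387 of 1762 (22.0%, 20.1 to 24.0). In ranks 10001 to 15000 it was 45 of 383 (11.7%, 8.90 to 15.4) and 285 of 1758 (16.2%, 14.6 to 18.0), lower on 13 chromosomes and higher on 7. Within ranks 10001 to 15000 and widths of 300 to 550 bp, the quartiles of the members, it was 25 of 206 (12.1%, 8.36 to 17.3) and 116 of 824 (14.1%, 11.9 to 16.6), so with rank and width restricted in both sets the intervals overlapped. Of regions that were also lost but acetylated in NIH3T3, 137 of 263 (52.1%, 46.1 to 58.1) had WT H3K4me2, and 141 of these 263 were at promoters.

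Of the 69 members with WT H3K4me2, 44 (63.8%, 52.0 to 74.1) also overlapped a Shh-/- H3K4me2 peak, against 751 of 1117 kept regions (67.2%, 64.4 to 69.9), and these intervals overlapped. Outside promoters it was 20 of 41 (48.8%, 34.3 to 63.5) and 399 of 713 (56.0%, 52.3 to 59.6), also with overlapping intervals. Among all strong peaks with WT H3K4me2 it was 89.2%. A further 16 members had H3K4me2 in Shh-/- and not in WT. In the 44 members with both, the authors' maximum log2 ratio of H3K4me2 had a median of 3.28 in WT and 3.34 in Shh-/-, and the difference (Shh-/- minus WT) had a median of -0.05 with quartiles of -0.31 and 0.29. For 751 kept regions the median difference was 0.06 with quartiles of -0.32 and 0.43. The 2 lists were normalized separately, so only the spread of these differences can be compared.

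Of the 20 members nearest HH targets, 5 had H3K4me2 in WT and 6 in Shh-/-, and they did not share one pattern. The member between Hoxd12 and Hoxd11 (rank 4143) and the stronger one at the Hoxd12 promoter (rank 6057) had it in WT only, with log2 ratios of 3.18 and 2.81. The weaker region at the Hoxd12 promoter (rank 12459) had it in both, with 3.38 in WT and 3.17 in Shh-/-. So did the Ptch1 region (3.67 and 3.72) and the Hand2 region of rank 8717 (2.74 and 3.26). It was in Shh-/- only at the Grem1 region in Fmn1 (2.71), at the Mycn region of rank 11629 (3.72) and at the lost region in the Sall3 promoter (2.53). Besides this region, the Sall3 promoter still had an H3K27ac peak in Shh-/- limb buds. The other 12 regions overlapped no H3K4me2 peak in either list.

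**Figure D4:**
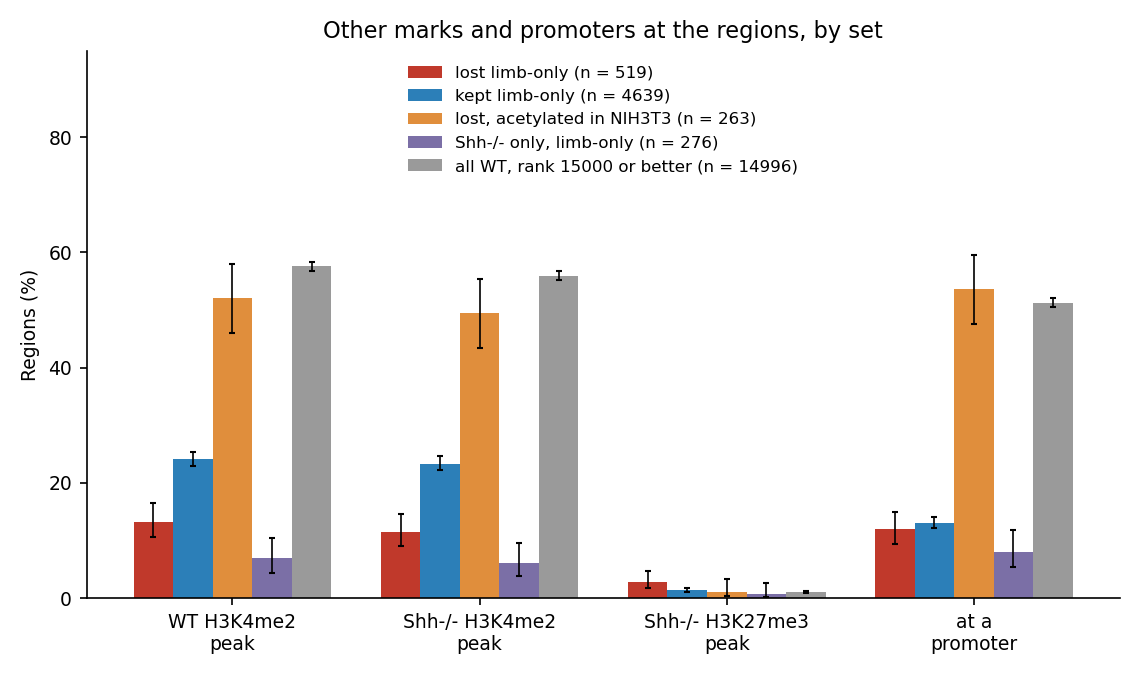
Share of regions (y axis, %) that overlap a WT H3K4me2, Shh-/- H3K4me2 or Shh-/- H3K27me3 peak or a promoter, for 5 sets of regions; bars are shares, error bars 95% Wilson intervals, which cover counting error only. Lost limb-only regions are below kept ones in WT H3K4me2 (13.3% and 24.1%) and near them at promoters (11.9% and 13.0%).

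H3K27me3 was measured in Shh-/- limb buds and was rare at the lost regions. It overlapped 15 of 519 members (2.89%, 1.76 to 4.71), against 1.03% of all strong peaks and 65 of 4639 kept regions (1.40%, 1.10 to 1.78), and the 2 intervals just overlapped. In ranks 10001 to 15000 it was 10 of 383 (2.61%, 1.42 to 4.74) and 20 of 1758 (1.14%, 0.738 to 1.75). Of the 20 members nearest HH targets 6 carried it (30.0%, 14.5 to 51.9), and so did 7 of the 46 kept regions nearest the same genes (15.2%, 7.57 to 28.2). Of all 109 strong peaks nearest these genes 22 carried it (20.2%, 13.7 to 28.7), a share that the members' interval held. Of the other 499 members 9 carried it (1.80%, 0.952 to 3.39). The 5 best-ranked members with H3K27me3 were the 2 at Hoxd12 and Hoxd11 inside a domain of 10900 bp, the 2 near the start of Hand2, and the one at Ptch1 inside a domain of 4350 bp. The H3K27me3 peak at the farther of the 2 Hand2 regions was 350 bp wide and had an FDR of 0.0827, and 12 of the 15 had an FDR under 0.05. Regions nearest Sall3, Lbx1, Zic2 and Lemd1 also carried it, and 2 members nearest Zbtb43 lay in the same H3K27me3 peak of 1350 bp.

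Like the kept regions, the lost ones lay mostly away from promoters. Of the members 62 of 519 (11.9%, 9.43 to 15.0) were at a promoter, against 51.2% of all strong peaks and 605 of 4639 kept regions (13.0%, 12.1 to 14.0). In ranks 10001 to 15000 it was 44 of 383 (11.5%, 8.67 to 15.1) and 197 of 1758 (11.2%, 9.82 to 12.8), against 38.2% of all strong peaks of these ranks. Introns held 203 members (39.1%), exons outside promoters 17 (3.28%) and the space between genes 237 (45.7%). The median distance to a protein-coding start was 72386 bp, against 64419 bp for kept regions. Median GC content of the central 500 bp was 44.6% in lost and 44.2% in kept regions. Repeats, as masked in the assembly, covered a median of 11.6% and 12.0% of the window.

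For members outside promoters, the promoters of the nearest genes were examined. These 457 members had 358 nearest genes, of which 211 (58.9%) had a WT H3K27ac peak at a promoter and 190 (53.1%) a Shh-/- one. In 30 genes (8.38%, 5.93 to 11.7) the promoter had H3K27ac in WT and not in Shh-/-, against 93 of 1765 genes (5.27%, 4.32 to 6.41) nearest kept regions outside promoters, and these intervals overlapped. They included Grem1, Zeb2 and Evx1. This measure comes from the same pair of lists as the rule and is a description. In NIH3T3 cells, 12 of the 358 (3.35%, 1.93 to 5.77) had promoter H3K27ac with purmorphamine and not with DMSO, against 28 of 1765 (1.59%, 1.10 to 2.28), again with overlapping intervals. Both changes were found at 2 of the 358 genes (0.559%, 0.153 to 2.01), against 3 of 1765 (0.170%, 0.0578 to 0.499), with overlapping intervals. The 2 genes were Grem1 and Smoc1, the latter a gene for a secreted matrix protein with a lost region 27359 bp away (rank 10132, log2 ratio 3.96). On the HH target list, promoters of 18 of 20 genes had H3K27ac in WT and 12 in Shh-/-, all 20 had H3K4me2 in both, and 17 had H3K27me3 in Shh-/-. These counts used every peak of the lists, and the FDR of the H3K27me3 list reached 0.255. The study itself found H3K27me3 enrichment at the promoters of a minority of its HH target genes. It used reads in a narrower window and another set of genes, so the counts are not alike. H3K27me3 was also at promoters of 7 of 7 posterior Hox genes outside that list, 11 of 13 limb mesenchyme genes and 8 of 10 anterior limb genes. Ectoderm genes had it at 7 of 9, muscle precursor genes at 6 of 8 and chondrogenic genes at 7 of 10. It was at 5 of 13 Wnt, 4 of 13 FGF and 2 of 16 BMP and TGF-beta pathway genes. HH reception genes had it at 4 of 16, and proximal and retinoic acid genes at 3 of 10. Endothelial genes had it at 3 of 9 and blood genes at 1 of 6. Among all genes nearest a member it was at promoters of 102 of 407 (25.1%), and of 365 of 2007 (18.2%) nearest a kept region.

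Beyond GLI, 16 other short motifs were searched in the same windows, each by its letters on both strands. The HAND E-box CATCTG was in 33.9% of lost and 35.2% of kept regions, MEIS TGACAG in 28.9% and 27.1%, posterior HOX CAATAAA in 12.1% and 12.3%, TCF/LEF CTTTGAT in 6.94% and 9.12%, T-box AGGTGT in 23.1% and 20.3%, and TEAD GGAATG in 23.3% and 26.3%. In all strong peaks these shares were 27.4%, 23.1%, 7.79%, 6.24%, 18.0% and 22.7%. Shares in lost and kept regions were 7.90% and 8.86% for PBX-HOX TGATTNAT, 17.5% and 18.5% for homeodomain TAATTA, 15.2% and 13.1% for AP-1 TGANTCA, and 7.13% and 6.70% for ETS CCGGAA. The letters AGATAA of GATA factors were in 130 of 519 lost and 1120 of 4639 kept regions. The shares were 5.59% and 7.16% for SOX ACAATGG, 8.67% and 8.64% for forkhead TGTTTAC, 25.6% and 24.1% for nuclear receptor AGGTCA, 7.51% and 7.67% for CTCF AGGGGGC, and 11.8% and 12.3% for the GC box GGGCGG. In all strong peaks the GC box was in 38.3% and ETS in 18.4%. There, GATA was in 16.8%, PBX-HOX in 5.54%, homeodomain in 11.3% and AP-1 in 10.2%. SOX was in 5.81% of them, forkhead in 6.65%, nuclear receptor in 21.7% and CTCF in 12.9%. No motif search used the letters of another, but the searches are not independent where motifs can share bases. For all 17 motifs the intervals of lost and kept regions overlapped.

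**Figure D5:**
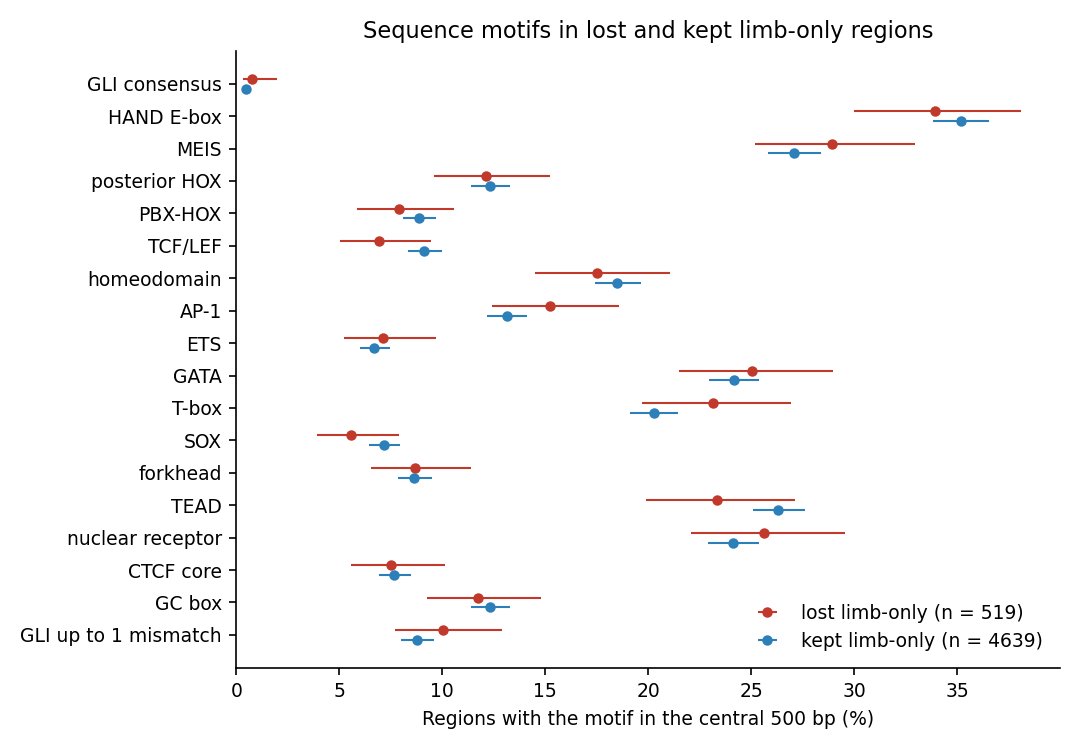
Share of regions (x axis, %) with each of 17 motifs, and with the GLI consensus at up to 1 mismatch, in the central 500 bp, for lost (red, n = 519) and kept (blue, n = 4639) limb-only regions; points are shares and lines 95% Wilson intervals. The red and blue intervals overlap in every row.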

How the data were processed

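The authors aligned reads with Bowtie2 2.2.5 to mm10 and, by the study's methods, identified peaks against input with CisGenome, from 2 replicates per condition. How the replicates were combined into 1 list is not given in the sources used here. The submitters' processing notes also list limma, which the study's methods apply to reads counted in merged peaks. The deposited lists give the position of a peak and its rank beside an FDR (a q-value of the peak caller), a score that is the highest statistic within the peak, the highest log2 ratio over input, and −log10 of the smallest Poisson p-value. In all 7 lists the deposited score was at least 3.00 and the −log10 value at least 5.00. The FDR reached 0.255 in the H3K27me3 list, 0.115 in the Shh-/- and 0.113 in the WT H3K4me2 list. It reached 0.0673 in the Shh-/- and 0.0473 in the WT H3K27ac list. The lists hold neither the depth of a library nor values per replicate. A test over samples needs the reads of each library, which were not used here.

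Peaks on chromosomes 1 to 19 and X were used, and all ends lay within GRCm38. Overlap of intervals, gaps and motif matches were computed in Python 3.11.15 with pandas 2.3.3 and pysam 0.24.0, and tested on simulated intervals against bedtools 2.31.1. Genes, exons and promoters were those of GENCODE basic vM21. Windows of 500 bp were centred on the midpoint of a peak. Shares have 95% Wilson intervals, which cover counting error only, and neighbouring peaks are not independent. Where 2 intervals are said to overlap this is a description, and it does not show that the shares are equal. Members and gene lists were chosen with earlier results of these data known. Named regions were the 10 best-ranked members, those nearest HH targets, runs of at least 4 members, those with a GLI consensus, the genes with most members in each list, the 5 best-ranked with H3K27me3 and those at each limit. Smaller runs and some other genes were named after their values had been seen, namely Ccser1, Nrg1, Sertad4, Smim20, Tle4, Zeb2, Skor1, Frzb, Nkd1, Meox2, Efnb2, Nrp2, Lnpk, Fbxo8, Hnrnpa3, Smoc1 and the further genes with H3K27me3. Alternatives changed the rank limit, the gap to the Shh-/- peaks, the exclusion lists, overlap distances, the promoter size and the choice of nearest gene.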

Additional observations from a re-analysis of the deposited data

How the results depend on the processing

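Of 89 alternatives over 10 results, 68 stayed within the interval of the main value, or within 1.5 times the main count. A rank limit of 10000 gave 136 members, 17.6% with WT H3K4me2, 15.4% with another member within 100 kb, 6.62% nearest an HH target and a median width of 550 bp. A limit of 20000 gave 1150 members, 10.3% with WT H3K4me2, 35.8% with a neighbour and a width of 300 bp. With no Shh-/- peak overlapping by 1 bp in place of the 1 kb gap, there were 1070 members, 35.2% of them with a neighbour. With exclusion only by the better-ranked 50% of peaks of the other lists, there were 1437 members, of which 1.60% had H3K27me3, 40.0% a neighbour and 2.44% an HH target nearest, with a width of 450 bp. H3K4me2 within 500 bp was found at 18.9% of members, narrower promoters at 7.71%, the GLI consensus with up to 1 mismatch at 10.0%, and another member within 20 kb at 22.4%. With the nearest start of any gene, 0.578% of members were nearest an HH target, against 0.227% of all strong peaks. This rests on only 3 members among 34 strong peaks. Because the list had been drawn up with results known, neither choice of nearest gene tests an excess at HH targets. The share of members among peaks nearest HH targets stayed above that among all strong peaks at a rank limit of 10000 (13.4% and 1.36%) and of 20000 (25.3% and 5.75%). The windows around HH targets, the width range and the genes left out in turn were chosen after seeing the data.

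No paired analysis was possible because each list gives 1 set of values per condition and none per replicate, and for the same reason no replicate could be left out. Absence from a list depends on the peak caller's threshold, and most members ranked 10001 to 15000, so they can have had acetylation in Shh-/- below that threshold. Shares resting on few regions, such as 4 with a GLI consensus and 15 with H3K27me3, have wide intervals.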

Other observations

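Within 500 kb of the start of any HH target gene, rather than nearest to it, 29 of 255 strong peaks were lost limb-only regions (11.4%, 95% Wilson interval 8.04 to 15.9), against 3.46% of all strong peaks, and they were 20.0% of the 145 limb-only peaks there, against 9.09%. This window was chosen after the data had been seen. In the same window the share was 8 of 44 (18.2%, 9.51 to 32.0) for the other posterior Hox genes, 2 of which lie in the Hoxd cluster, and 8 of 97 (8.25%, 4.24 to 15.4) for chondrogenic genes. Of the 8 lost regions of the posterior Hox genes, 7 lay around Hoxd9 and Evx2. These 7 are also counted among the 29 of the HH targets, through Hoxd10 to Hoxd13, so the 2 shares are not separate. The genes of HH reception and processing had 5 of 224 strong peaks lost in it (2.23%, 0.957 to 5.12), although none was nearest to such a gene.

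Limb-only regions found only in Shh-/- limb buds, with the same rank limit in the Shh-/- list, numbered 276. Their median width was 300 bp and their median log2 ratio 3.53, against 400 bp and 3.77 for the 519 regions lost without Shh, and the lists were normalized separately. Of the 276, 19 overlapped WT H3K4me2 (6.88%).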
